A study of Mus musculus with 6 samples.

Results

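The peaks of H3K4me3 were set against those of H3K27me3 in neural stem and progenitor cells that had been kept with crotonate. Both libraries were chosen by their labels and are 2 of the 6 samples of the series. The cells came from the forebrain of mouse embryos at E13.5 and were passaged in medium with EGF and FGF (strain and genotype not given in the sources used here). They were kept for 24 h with 10 mM crotonate, a short-chain fatty acid that cells turn into crotonyl-CoA, or with water. The marks were mapped by CUT&Tag, in which an antibody brings a transposase to the marked nucleosomes to cut and tag the DNA beside them. The 2 water libraries of the same marks are set beside them, and IgG was not analysed here. There was 1 library per mark and treatment, so differences between libraries could not be checked against replicates or tested. Intervals in brackets are exact Clopper-Pearson 95% intervals, which cover counting error only.

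H3K4me3 is placed by COMPASS and MLL complexes at the start sites of genes that are transcribed or held ready, mostly in CpG islands. H3K27me3 is placed by Polycomb repressive complex 2 over silent developmental genes, often as long domains. In embryonic stem cells and in progenitors some promoters carry both, a state called bivalent, and such genes are mostly regulators of cell fate. An antibody for H3K27me3 and one for H3K4me3 were used on separate aliquots of many cells. Peaks of both marks at a place may therefore come from the same nucleosomes, from both alleles or from different cells of the culture, and these cannot be told apart here.

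The promoters of 7 genes show the kinds of place described below. Each sequence is the 200 bases before a start site, from RefSeq for GRCm38.p6, with every CpG in capitals, since CpG content is the property in which the groups of promoters differed. Sox2 (chr3:34649795-34649994 on the plus strand) and Nes (chr3:87970893-87971092 on the plus strand), genes of neural stem cells, had H3K4me3 without H3K27me3. Dlx2 (chr2:71546755-71546954 on the minus strand) and Neurog2 (chr3:127632936-127633135 on the plus strand), factors of interneuron and of excitatory neuron formation, had both marks. Otp (chr13:94875436-94875635 on the plus strand), a factor of hypothalamic neurons, and Hoxa9 (chr6:52227371-52227570 on the minus strand), a patterning gene of the trunk, had H3K27me3 without H3K4me3. Gfap (chr11:102897201-102897400 on the minus strand), the intermediate filament of astrocytes, had neither.
Sox2: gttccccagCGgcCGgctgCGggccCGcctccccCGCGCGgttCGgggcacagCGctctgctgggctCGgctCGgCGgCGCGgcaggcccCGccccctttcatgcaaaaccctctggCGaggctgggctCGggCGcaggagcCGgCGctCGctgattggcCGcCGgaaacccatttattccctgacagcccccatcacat
Nes: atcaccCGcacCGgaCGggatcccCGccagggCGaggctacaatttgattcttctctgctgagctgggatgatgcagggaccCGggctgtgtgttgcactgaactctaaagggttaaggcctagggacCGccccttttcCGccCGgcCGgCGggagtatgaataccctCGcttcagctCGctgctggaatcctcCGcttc
Dlx2: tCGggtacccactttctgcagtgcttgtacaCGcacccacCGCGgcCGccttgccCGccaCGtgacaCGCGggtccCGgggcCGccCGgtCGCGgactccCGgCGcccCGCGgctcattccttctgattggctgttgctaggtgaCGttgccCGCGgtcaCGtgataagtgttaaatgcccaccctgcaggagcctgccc
Neurog2: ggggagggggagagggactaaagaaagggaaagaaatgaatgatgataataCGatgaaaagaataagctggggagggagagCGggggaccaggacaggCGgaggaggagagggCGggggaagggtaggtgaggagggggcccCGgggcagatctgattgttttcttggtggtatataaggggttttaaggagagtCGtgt
Otp: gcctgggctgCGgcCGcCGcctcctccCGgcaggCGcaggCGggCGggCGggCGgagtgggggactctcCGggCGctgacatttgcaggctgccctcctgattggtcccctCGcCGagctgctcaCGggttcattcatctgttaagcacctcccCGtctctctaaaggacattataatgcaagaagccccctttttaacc
Hoxa9: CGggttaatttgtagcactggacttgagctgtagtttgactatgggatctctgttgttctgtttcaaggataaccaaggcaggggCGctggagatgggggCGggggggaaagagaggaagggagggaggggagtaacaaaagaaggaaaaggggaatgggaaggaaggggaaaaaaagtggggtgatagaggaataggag
Gfap: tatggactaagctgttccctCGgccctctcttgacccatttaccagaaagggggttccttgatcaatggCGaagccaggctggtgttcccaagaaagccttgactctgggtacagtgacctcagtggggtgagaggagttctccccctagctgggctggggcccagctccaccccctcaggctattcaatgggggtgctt
The printed stretch holds 23 CpG in Sox2, 14 in Nes, 22 in Dlx2, 6 in Neurog2, 15 in Otp, 3 in Hoxa9 and 2 in Gfap. These genes were picked as examples, and the groups overlap in CpG content, as Neurog2 and Otp show. Gfap does not stand for glial genes as a group. Of 20 astrocyte and oligodendrocyte genes 10 had H3K4me3 alone, 7 neither mark, 2 H3K27me3 alone and 1 overlapping marks.

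The deposited lists held 16007 H3K4me3 peaks over 29.4 Mb and 15879 H3K27me3 peaks over 33.0 Mb after crotonate. Over H3K4me3 peaks the length was 1707 bp and −log10 q 57.5 in the median. Here q is the authors' adjusted p of the peak, against a background that is not given in the sources used here. H3K27me3 peaks were shorter in the median (828 bp, −log10 q 4.16), with a tail of long domains up to 172 kb. The lists give no fragment totals, so the depth of each library is unknown. The values of a peak describe it within its own list and are not compared between marks.

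Most peaks of either mark lay apart from the other mark, while the bases the marks shared were more than their coverage of the genome. Of the H3K4me3 peaks, 13572 (84.8%, 84.2 to 85.3) had no H3K27me3 peak on them or within 5 kb. A further 718 (4.49%, 4.17 to 4.82) were flanked, with an H3K27me3 peak within 5 kb and no shared base. The remaining 1717 (10.7%, 10.3 to 11.2) overlapped H3K27me3 by at least 1 bp. Read from the other list, 1662 H3K27me3 peaks (10.5%, 10.0 to 11.0) lay on H3K4me3, 1784 (11.2%) were flanked by it and 12433 (78.3%) were apart. In bases, 1.71 Mb carried both marks, which is 5.84% of the H3K4me3 bases and 5.20% of the H3K27me3 bases. For comparison, H3K27me3 peaks covered 1.21% of the genome and H3K4me3 peaks 1.08%.

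The share of overlap went with peak strength, in opposite ways for the marks. Among H3K4me3 peaks it was 11.8% at a −log10 q of 2 to 5, highest at 10 to 20 (30.1%, 27.5 to 32.8), and 1.32% (0.947 to 1.80) at 100 to 200. Among H3K27me3 peaks it was 4.16% at a −log10 q of 2 to 5 and 35.6% at 20 to 50. Above 50 it ran between 52.5% and 55.7%. H3K4me3 peaks on H3K27me3 had a median −log10 q of 18.4, against 57.5 over their list, and H3K27me3 peaks on H3K4me3 one of 16.3, against 4.16. Of the 1816 overlapping pairs, 1326 (73.0%) had only the H3K27me3 peak above the median of its list. Both peaks were above their medians in 183 pairs (10.1%), and only the H3K4me3 peak was in 65 (3.58%). Over these pairs the ranks of −log10 q had a Spearman correlation of -0.31, given as a description, since pairs share libraries. With the 5000 strongest peaks of each list, 0.94% of the H3K4me3 and 1.04% of the H3K27me3 peaks overlapped.

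**Figure D1:**
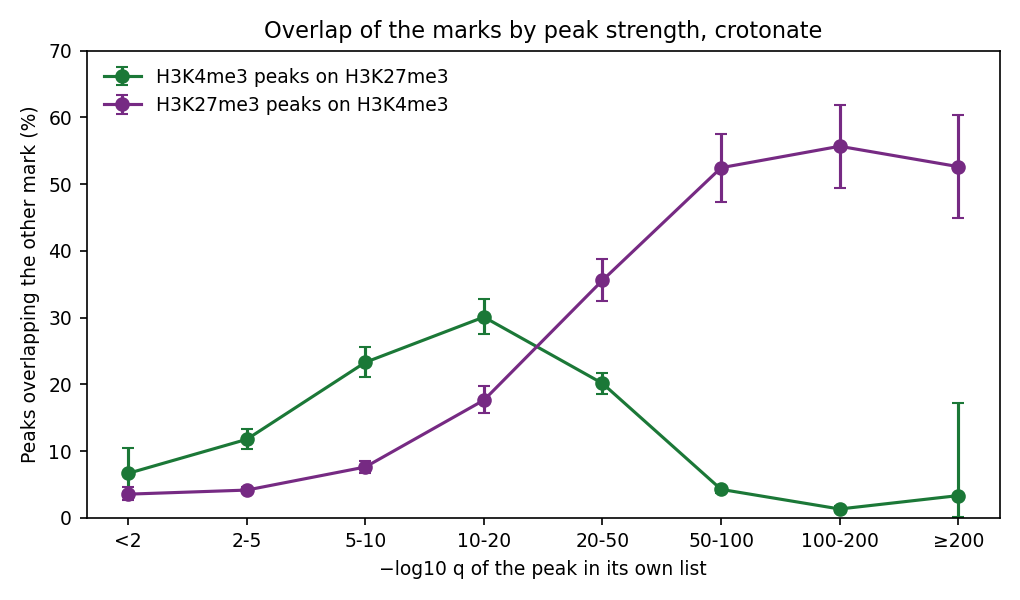
Share of peaks overlapping the other mark (vertical axis, %) by the −log10 q of the peak in its own list (horizontal axis, bins) after crotonate, with bars for exact 95% intervals. The H3K4me3 line peaks at 30.1% in the bin from 10 to 20 and falls to 1.32% at 100 to 200, while the H3K27me3 line climbs to 55.7%.

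Length gave a like picture. H3K4me3 peaks of 0.5 to 1 kb overlapped H3K27me3 in 20.1% and those of 2 to 5 kb in 5.29%. Of the 10 peaks of 10 to 20 kb, 0 did (0 to 30.8%). H3K27me3 peaks under 0.5 kb lay on H3K4me3 in 3.55%, those of 5 to 10 kb in 39.2% and those of 20 to 50 kb in 47.5% (39.6 to 55.5). A longer peak meets another peak more easily, which was not adjusted for here.

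Overlap took 3 shapes. In 988 of the 1717 cases (57.5%, 55.2 to 59.9) the H3K4me3 peak lay wholly inside an H3K27me3 peak, as an island of 901.5 bp in the median within a domain of 6549.5 bp. In 528 (30.8%) the peaks met at an edge, and 61.0% of the H3K4me3 peak was covered in the median. In 201 (11.7%) the H3K4me3 peak held a short H3K27me3 peak of 605 bp in the median. H3K4me3 peaks inside a domain were weak (median −log10 q 11.2), those at an edge stronger (30.1) and those holding a short H3K27me3 peak stronger again (49.3). The H3K27me3 peaks had the reverse order, with medians of 51.0, 8.38 and 3.77. The H3K4me3 summit lay under H3K27me3 in 78.4% of pairs, the H3K27me3 summit lay under H3K4me3 in 56.7%, and the summits were 693.5 bp apart in the median.

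Around the summits of overlapping H3K4me3 peaks, H3K27me3 was highest at the summit itself and fell away slowly. It covered 82.9% of positions at the summit, 51.8% at 2.5 kb to the left and 47.5% to the right, 29.9% and 27.5% at 5 kb, and about 9% at 20 kb (9.32% and 9.03%). H3K4me3 around H3K27me3 summits was narrow, with 62.0% at the summit and 8.48% and 9.21% at 2.5 kb. No dip of H3K27me3 over the H3K4me3 summit was seen in the overlapping group, whose definition requires overlap.

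**Figure D2:**
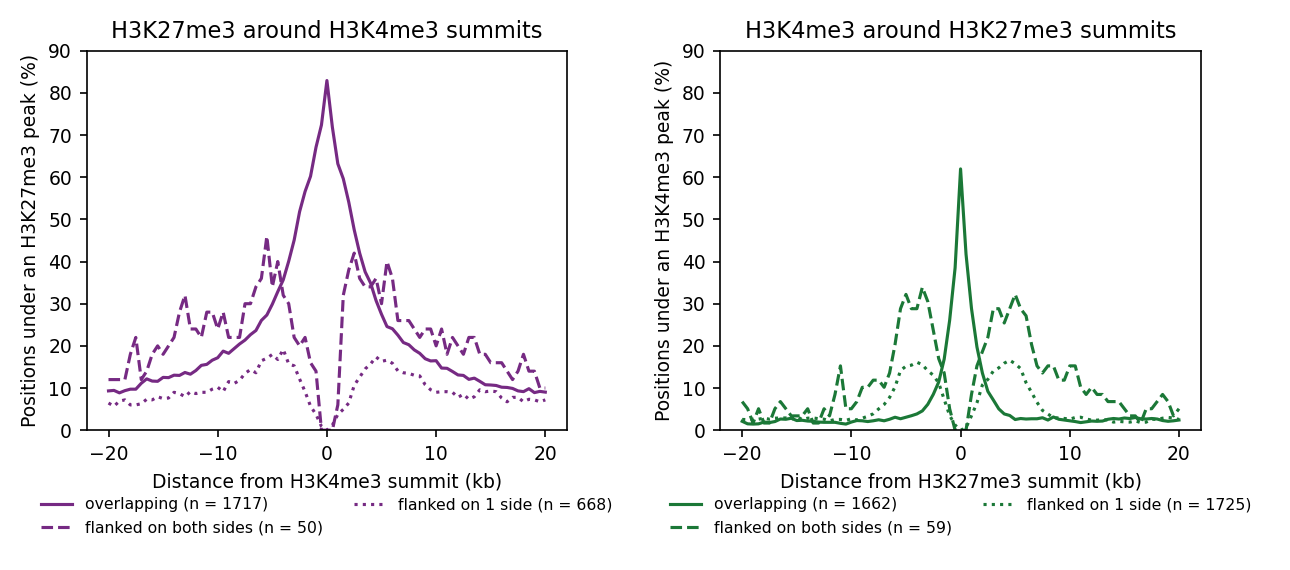
Share of positions under a peak of the other mark (vertical axis, %) by distance from the summit of H3K4me3 peaks (left) and H3K27me3 peaks (right) in kb, for overlapping peaks (solid), peaks flanked on both sides (dashed) and on 1 side (dotted). H3K27me3 covers 82.9% of positions at the summits of overlapping H3K4me3 peaks, and the hole at 0 in the flanked groups follows from their definition.

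A clean hole in H3K27me3 filled by H3K4me3 was rare. An H3K27me3 peak lay within 5 kb on both sides, with no overlap, at 50 H3K4me3 peaks (0.312%), and 668 (4.17%) were flanked on 1 side. In the group of 50 the H3K4me3 peak had a median length of 908 bp (268 to 2921) and the H3K27me3 edges stood 5065.5 bp apart in the median (1299 to 9718). Read from the H3K27me3 side, 10529 gaps of up to 10 kb separated neighbouring H3K27me3 peaks. An H3K4me3 peak reached into 402 of them (3.82%, 3.46 to 4.20). Peaks that also overlapped a bordering H3K27me3 peak were counted, so these gaps need not be clean holes. H3K4me3 peaks flanked on both sides lay at a gene start in 52.0%, against 78.1% of overlapping peaks and 79.0% of peaks apart. Among peaks that did not overlap, the number per kb of distance to the nearest peak of the other mark was 141 H3K4me3 peaks at 0 to 1 kb, 161 at 1 to 2 kb, 100 at 5 to 10 kb and 45.1 at 50 to 100 kb. The numbers were thus highest at 1 to 2 kb, a little lower next to the other mark, and lower with distance beyond that.

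Where H3K27me3 lay differed most between the groups. A gene start, here and above, means within 2 kb of a listed start, or of either annotated end where no start is listed. Overlapping H3K27me3 peaks were at a gene start in 82.6% (80.6 to 84.4). Flanked peaks were in 26.3%, and peaks apart from H3K4me3 in 9.52%, with 55.9% of the latter between genes. The overlapping group is picked by H3K4me3, which itself sits mostly at starts.

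H3K27me3 domains of 10 kb or more numbered 537, and 245 of them (45.6%, 41.4 to 49.9) held H3K4me3, which covered 3.86% of the bases of all 537. The 4 longest were the Hox clusters, which encode the factors that pattern the trunk and hindbrain. Hoxc lay under 171.7 kb, Hoxd under 126.0 kb and Hoxb under 115.3 kb of unbroken H3K27me3, none with an H3K4me3 peak. The domain of Hoxa was 139.8 kb long. Domains over Otp (56.5 kb), Hand2 (52.4 kb, a factor of heart and sympathetic neurons) and Gata4 (48.6 kb, a factor of heart and gut) held none. Those over Nr2f2 (52.9 kb, a nuclear receptor of caudal forebrain patterning) held 3, over Pax2 (51.4 kb, kidney and midbrain) 2 and over Tfap2a (48.7 kb, neural crest) 4.

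Genes were then sorted by the peaks within 2 kb of their start. The annotation lists starts for 17492 of the 21887 protein-coding genes, and for the other 4395 both annotated ends were used. H3K4me3 alone marked 11312 genes (51.7%, 51.0 to 52.3) and H3K27me3 alone 979 (4.47%, 4.20 to 4.76). The marks overlapped at 1298 (5.93%, 5.62 to 6.25), lay near each other without overlap at 130 (0.594%) and sat at different starts or ends of a gene at 43 (0.196%). Neither was called at 8125 (37.1%). Both marks at a window, overlapping or not, were at 1428 genes (6.52%), and H3K4me3 in any arrangement was at 58.4% of genes. At the 1298 genes H3K4me3 peaks had a median −log10 q of 22.8 and a length of 1338 bp, against 81.6 and 2172.5 bp at genes with H3K4me3 alone. Their H3K27me3 peaks had medians of 18.7 and 3481.5 bp, against 14.9 and 3391 bp at genes with H3K27me3 alone.

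Over all genes, H3K27me3 was at 1471 of 12783 genes with H3K4me3 (11.5%, 11.0 to 12.1) and at 979 of 9104 without it (10.8%, 10.1 to 11.4), and the intervals overlapped. Under H3K27me3 peaks of 5 to 10 kb 65.6% of genes had H3K4me3, and under those of 20 kb or more 36.7% (30.0 to 43.9). Genes that share a peak, such as those of the Hox clusters, were each counted here, which the interval does not allow for. Counted by peak, with H3K4me3 anywhere on it, the share was 39.2% at 5 to 10 kb and 46.5% (38.9 to 54.3) at 20 kb or more.

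Promoter sequence differed in the median between these groups, whose ranges overlapped. The ratio of observed to expected CpG was taken from 250 bases before to 50 after the most upstream listed start of each gene. Marks were counted at any listed start (21263 over the 17492 genes), so mark and ratio can belong to different starts. This ratio had a median of 0.792 at 9225 promoters with H3K4me3 alone. It was 0.716 at 958 with overlapping marks, 0.401 at 699 with H3K27me3 alone and 0.181 at 6506 with neither, against 0.577 over all 17492. The quartiles were 0.632 and 0.927 with H3K4me3 alone, 0.535 and 0.858 with overlapping marks, and 0.220 and 0.634 with H3K27me3 alone. When promoters were split by this ratio, the like frequencies above came apart. At CpG-rich promoters (0.6 or more) H3K27me3 was at 711 of 7951 genes with H3K4me3 (8.94%, 8.32 to 9.59) and at 199 of 515 without it (38.6%, 34.4 to 43.0). At CpG-poor promoters the order turned, with 351 of 2336 (15.0%, 13.6 to 16.5) with H3K4me3 and 500 of 6690 (7.47%, 6.85 to 8.13) without. This last order held among peaks with −log10 q of at least 5 (10.8% and 5.71%) and turned among the strongest. With the 5000 strongest of each list, CpG-poor promoters had H3K27me3 at 2.04% of 686 genes with H3K4me3 and 6.45% of 8340 without. CpG-rich ones had it at 0.926% of 3996 and 14.3% of 4470. The groups without H3K4me3 there take in genes whose H3K4me3 peak was not among the 5000, so they differ from those above. The split was chosen after the data had been seen.

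**Figure D3:**
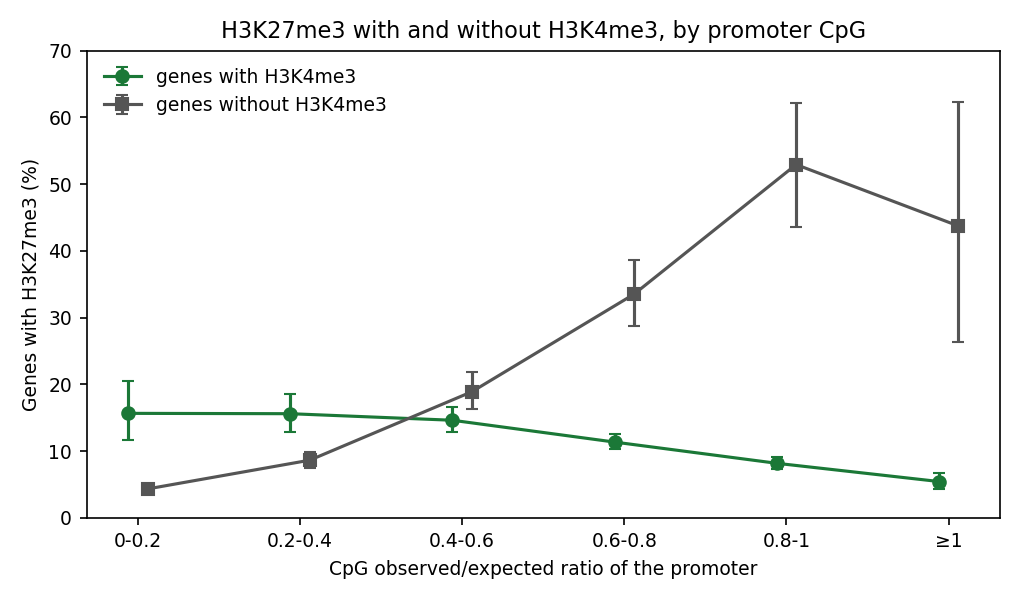
Share of genes with H3K27me3 (vertical axis, %) among genes with (circles) and without (squares) H3K4me3, by CpG observed/expected ratio of the promoter (horizontal axis, bins), with exact 95% intervals. The ratio is that of the most upstream listed start, and marks are counted at any listed start of the gene. Without H3K4me3 the share climbs from 4.33% to 52.9% at a ratio of 0.8 to 1, and with H3K4me3 it falls from 15.7% to 5.44%.

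Some short motifs differed in frequency between the groups and others less so, by a search of both strands of the 300 bases. The GC box GGGCGG was in 70.1% of promoters with overlapping marks, 67.9% with H3K4me3 alone, 42.3% with H3K27me3 alone and 12.4% with neither, and in 46.3% of all. The TATA box TATAAA was in 8.98%, 6.12%, 14.02% and 24.2% of these groups and 13.3% of all. The CCAAT box had another order, with 32.7%, 40.1%, 35.2% and 39.3%, and 39.2% of all. CAGATG, an E-box bound by proneural factors, was in 115 of 958 promoters with overlapping marks, 10.6% with H3K4me3 alone, 15.5% with H3K27me3 alone, 21.5% with neither and 14.9% of all. CACGTG, an E-box bound by Myc, was in 8.87%, 10.6%, 7.44% and 4.07% of the groups in the same order and 7.91% of all. The palindrome GGCGCC was in 27.8%, 23.0%, 13.3% and 2.92%, and CGCG in 73.6%, 76.3%, 38.5% and 8.99%. These motifs can share bases with each other, and both of the last hold CpG, as the GC box does.

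Most genes of the culture's own cell type had H3K4me3 alone. Of 20 neural stem and progenitor genes 16 did, where 51.7% of all genes did. Overlapping marks were at 3 (Emx1, Otx2 and Prom1), where 5.93% of all genes had them, and 1, Msi1, had neither. Sox2, the stem cell factor, lay under H3K4me3 of 11.6 kb (−log10 q 103), and the nearest H3K27me3 peaks were 745831 and 989854 bp away. Nes, which encodes nestin, had a peak of 5.00 kb (−log10 q 125) with H3K27me3 no nearer than 47253 bp. Hes1, the Notch target that holds progenitors undifferentiated, had 4.63 kb with an H3K27me3 peak 938 bp from its edge. Pax6, the dorsal progenitor factor, had only a peak of 0.376 kb with −log10 q 3.01 in its window after crotonate and none there after water. Peaks elsewhere in the gene were not read, and the label of forebrain progenitors rests on the other markers here. Emx1 and Otx2, which pattern the dorsal and the rostral brain, had H3K4me3 of 0.992 and 2.36 kb inside H3K27me3 of 13.9 and 26.2 kb.

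Markers of other cell types were found in several states. Of 12 genes each, neither was called at 7 for microglia and blood, 7 for endothelium and pericytes, 4 for fibroblasts and 7 for epithelium and liver, where 37.1% of all genes had neither. Overlapping marks were at 0, 2 (Erg and Flt1), 4 (Foxc1, Foxc2, Pdgfra and Tbx18) and 3 (Cdh1, Epcam and Ovol1) of these lists. H3K27me3 alone was at 3, 2, 2 and 2. Over all genes, overlapping marks were at 5.93%, H3K27me3 alone at 4.47% and H3K4me3 alone at 51.7%. H3K4me3 alone was at Cd68 and Spi1 of microglia (−log10 q 1.63 and 4.81) and Col1a1 (4.09) and Prrx1 of mesenchyme. It was also at Kdr, the endothelial VEGF receptor, which had 1.54 kb (−log10 q 78.1). Aif1, Cx3cr1 and P2ry12 of microglia and Pecam1 and Cdh5 of endothelium had neither mark, while Erg and Flt1 of endothelium had H3K4me3 of 0.765 and 1.42 kb inside H3K27me3 of 5.68 and 11.0 kb. The part of other cells in the overlaps was not tested.

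Among regulators of neuronal fate, overlap was the most frequent arrangement. Of 20 proneural and neuronal differentiation factors, 10 had overlapping marks, 4 had H3K4me3 alone, 2 had H3K27me3 alone and 4 had neither, where 5.93% of all genes had overlapping marks. The gene lists were chosen with earlier results of these data known, and their counts are a description. At Neurog2, the proneural factor of excitatory neurons, H3K4me3 of 2.16 kb (fold enrichment 14.4, −log10 q 25.5) lay inside H3K27me3 of 23.9 kb (32.1, 119). After water it was 1.29 kb (−log10 q 9.01) in 24.3 kb (130). At Eomes, which encodes the factor of intermediate progenitors, H3K4me3 of 3.30 kb (−log10 q 57.0) lay inside H3K27me3 of 8.69 kb (66.2). The water lists had 2.67 kb (5.41) and 8.07 kb (42.2) there. Both genes thus had both marks in both treatments, with the H3K4me3 peak longer after crotonate. The whole H3K4me3 list also had longer and stronger peaks after crotonate. Its medians were 1707 bp and −log10 q 57.5, against 1508 bp and 37.7 after water. Longer H3K4me3 peaks at single genes, here and below, are therefore not particular to those genes.

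Other factors of neuron formation were marked otherwise. Pou3f2, a factor of upper-layer neurons, had 7.83 kb of H3K4me3 (−log10 q 104) and no H3K27me3 within 771935 bp. Tbr1, a factor of deep-layer neurons, had no H3K4me3 and 21.2 kb of H3K27me3 (284), which was 26.4 kb (144) after water. Dcx, Neurod4, Neurod6 and Rbfox3, the first of which encodes a microtubule protein of migrating neurons, had neither.

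Ventral forebrain and interneuron factors overlapped most often of all lists, with 15 of 20, where 5.93% of all genes had overlapping marks. The Dlx genes, which direct interneuron formation, lie in pairs. One H3K27me3 domain of 24.2 kb (fold enrichment 63.5, −log10 q 199) spanned Dlx1 and Dlx2, and each gene had its own H3K4me3 peak. That of Dlx1 was 2.09 kb (−log10 q 43.1) and wholly covered, and that of Dlx2 was 1.69 kb (76.7), 83.03% covered and across the edge of the domain. The printed Dlx2 promoter holds that edge, at position 71546939. After water the peaks were 0.735 kb (9.71) and 1.45 kb (22.4) in 22.5 kb. Dlx5 and Dlx6 lay in a domain of 46.3 kb (237), with H3K4me3 of 0.681 kb (12.5) and 0.942 kb. Neither H3K4me3 peak was listed after water, where the domain was 45.8 kb (243).

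Sp9 and Shh were wholly covered as well, with H3K4me3 of 3.53 kb in 12.8 kb and 3.27 kb in 10.9 kb of H3K27me3. Sp9 is a factor of striatal neurons and Shh the ventral morphogen. Nkx2-1 and Isl1, factors of the medial eminence and of cholinergic and motor neurons, had H3K27me3 of 25.8 and 23.9 kb alone, and so did the neuropeptide gene Sst with 4.43 kb. Olig2, a factor of oligodendrocytes and motor neurons, had only H3K4me3, of 9.86 kb. All 20 genes had a mark.

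**Figure D4:**
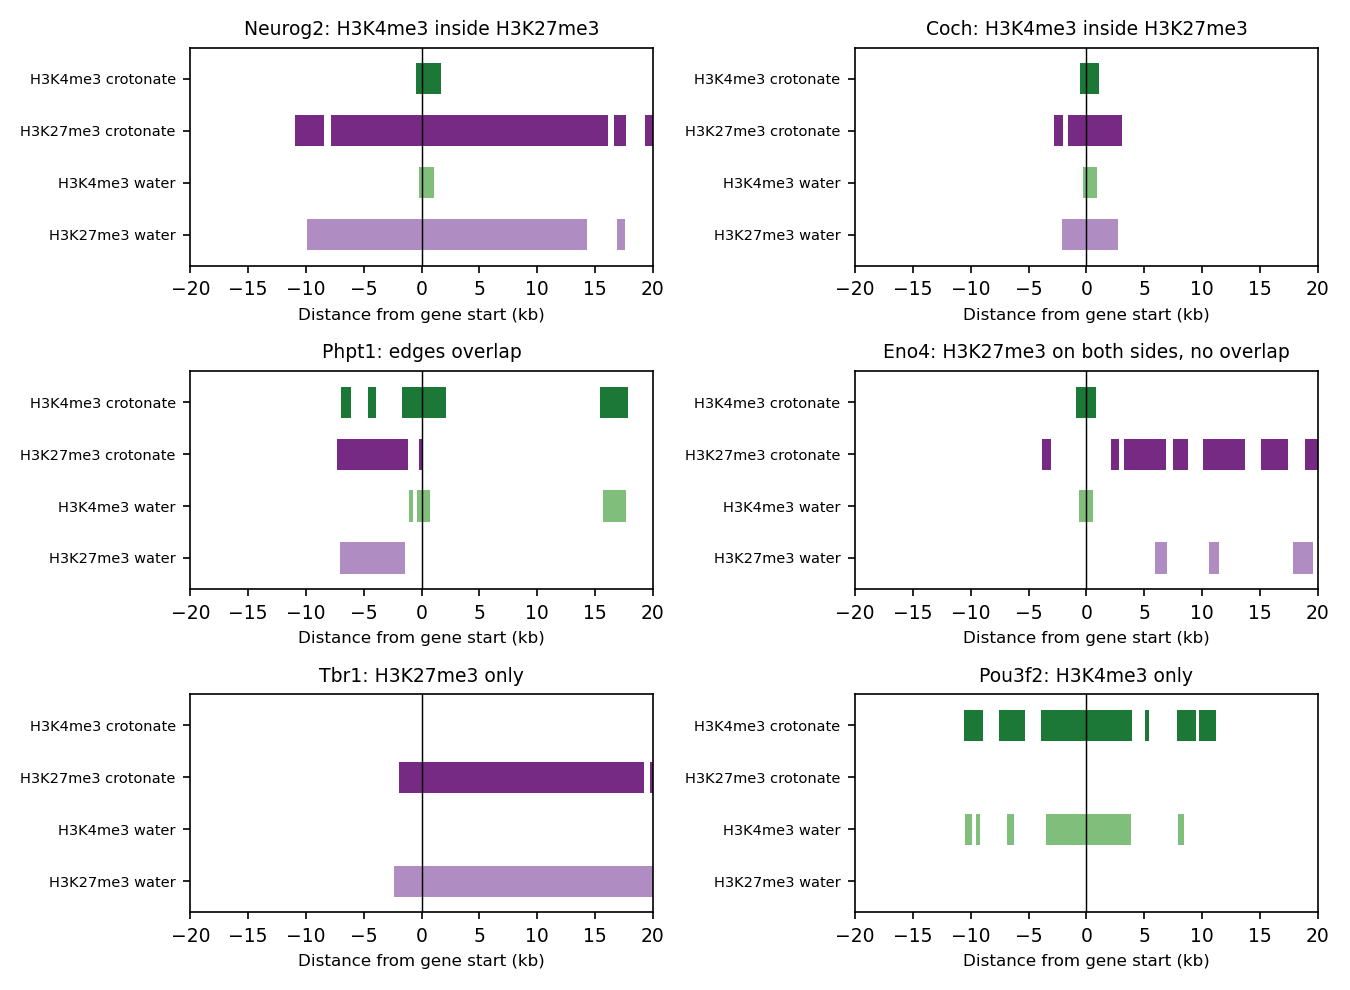
Peaks of H3K4me3 (green) and H3K27me3 (purple) after crotonate (dark) and water (light) by distance from the gene start (horizontal axis, kb, 0 marked by a line) at 6 genes. H3K4me3 sits inside H3K27me3 at Neurog2 and Coch, meets its edge at Phpt1 and lies between H3K27me3 peaks at Eno4, while Tbr1 has only H3K27me3 and Pou3f2 only H3K4me3.

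Patterning homeobox genes outside the Hox clusters, some of them factors of the forebrain, mostly had overlapping marks or H3K27me3 alone. Of 44 homeobox genes outside Hox, 24 had overlapping marks and 18 had H3K27me3 alone, 1 (Prrx1) had H3K4me3 alone and 1 (Dbx2) neither. For all genes the shares were 5.93% with overlapping marks and 4.47% with H3K27me3 alone. Irx5 and Irx3, which pattern the neural tube and heart, had H3K4me3 of 4.57 and 2.25 kb wholly inside H3K27me3 of 18.5 and 14.3 kb. Lmx1b, Tlx3, Lhx3 and Pax7, factors of midbrain, spinal cord and pituitary lineages, had H3K27me3 of 20.0 to 31.9 kb alone. Of the 39 Hox genes 38 had H3K27me3 alone. Of 44 transcription factors of non-neural lineages, 27 had H3K27me3 alone and 11 overlapping marks. Gata4, Nkx2-5 and Tbx20, which build the heart, had 48.6, 30.5 and 22.9 kb of H3K27me3 and no H3K4me3. Gata3 and Runx1, factors of T cells and of blood stem cells, had H3K4me3 of 0.872 and 2.12 kb inside 38.4 and 12.6 kb.

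In signalling, ligands and receptors differed. Of 45 Wnt, BMP, FGF and hedgehog ligands and secreted regulators, 22 had overlapping marks, 12 H3K27me3 alone and 9 H3K4me3 alone. Of 45 receptors and targets, 37 had H3K4me3 alone and 6 overlapping marks. Over all genes, H3K4me3 alone was at 51.7%, overlapping marks at 5.93% and H3K27me3 alone at 4.47%. Fgf9, a ligand of neural and lung growth, had H3K4me3 of 6.41 kb (−log10 q 63.6) inside H3K27me3 of 9.99 kb (103). Its H3K4me3 peak was 2.15 kb (14.9) after water. Sfrp1 and Fgf5 were also wholly covered, and Wnt3a, Ihh, Fgf4 and Dkk1 had H3K27me3 alone, of 9.82 to 19.5 kb. Wnt7a had H3K4me3 of 3.89 kb with an H3K27me3 peak 2533 bp away. Among receptors and targets, Smo, the hedgehog transducer, had 2.44 kb of H3K4me3 and Spry2, the FGF feedback inhibitor, 7.16 kb, with no H3K27me3 within 5 kb of either. Lef1 and Smad6, a Wnt effector and a BMP inhibitor, had H3K4me3 of 3.39 and 3.13 kb inside H3K27me3 of 12.7 and 7.83 kb.

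Ion channel and neurotransmitter genes had overlapping marks at 19 of 44 and H3K4me3 alone at 11. These states were at 5.93% and 51.7% of all genes. At Grin2b, an NMDA receptor subunit, 63.6% of an H3K4me3 peak of 2.39 kb (−log10 q 82.6) was covered by H3K27me3 of 2.38 kb (10.8). Grin1, the shared NMDA subunit, had H3K4me3 of 1.34 kb with H3K27me3 peaks 744 and 4256 bp away. At Cacna1a, a calcium channel gene, the marks sat at different ends. Slc17a6 and Drd2, a glutamate transporter and a dopamine receptor, had H3K27me3 alone, of 10.5 and 5.83 kb.

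Genes that place or read the marks had H3K4me3 alone for the most part. Of 45 Polycomb and trithorax subunits 38 did, Ezh2, Suz12, Eed, Kmt2a and Kmt2d among them. Among all genes 51.7% did, and 5.93% had overlapping marks. Overlapping marks were at Pcgf1, Pcgf2, Bmi1, Pcgf5 and Cbx2, all subunits of Polycomb repressive complex 1. Pcgf1 had H3K4me3 of 2.27 kb (−log10 q 123), 74.4% covered by H3K27me3 of 20.1 kb (363), a pair in which both marks were strong. That H3K27me3 domain also took in Dqx1 and Tlx2. Pcgf2 had H3K4me3 of 6.98 kb (126), 24.8% covered by 2.13 kb (18.6), and Bmi1 3.10 kb (67.2), 31.8% covered by 0.988 kb (25.3). Pcgf3 had H3K4me3 of 3.33 kb with H3K27me3 1137 bp from its edge. All 30 genes of crotonyl-CoA metabolism and crotonylation had H3K4me3, and 29 had it alone. The exception was Cdyl, which encodes a reader of methylated histones that hydrates crotonyl-CoA, with H3K4me3 of 3.23 kb at a start and H3K27me3 of 0.896 kb (−log10 q 3.77) at another.

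Cell cycle genes had H3K4me3 alone at 26 of 30, and the other 4 were Cdk6 and the inhibitors Cdkn2a, Cdkn2b and Cdkn1c. Cdkn2a, the senescence locus, had H3K4me3 of 2.09 kb (−log10 q 70.2), 50.6% covered by H3K27me3 of 9.53 kb (67.7). Of 26 housekeeping genes 24 had H3K4me3 alone, and Gapdh and Actb had H3K27me3 no nearer than 151822 and 202150 bp. Psmb2, a proteasome subunit, overlapped through H3K27me3 of 0.477 kb with −log10 q 2.03, near the threshold of the list. Ywhaz, also of the housekeeping list, had neither mark in its window after crotonate or water. By family, 76 of 80 ribosomal protein genes and 61 of 63 clustered histone genes had H3K4me3 alone, and 1090 of 1106 olfactory receptor genes had neither. Of 94 potassium channel genes 27 had overlapping marks, and of 13 T-box genes 8 had H3K27me3 alone. Over all genes, H3K4me3 alone was at 51.7%, neither mark at 37.1%, overlapping marks at 5.93% and H3K27me3 alone at 4.47%.

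**Figure D5:**
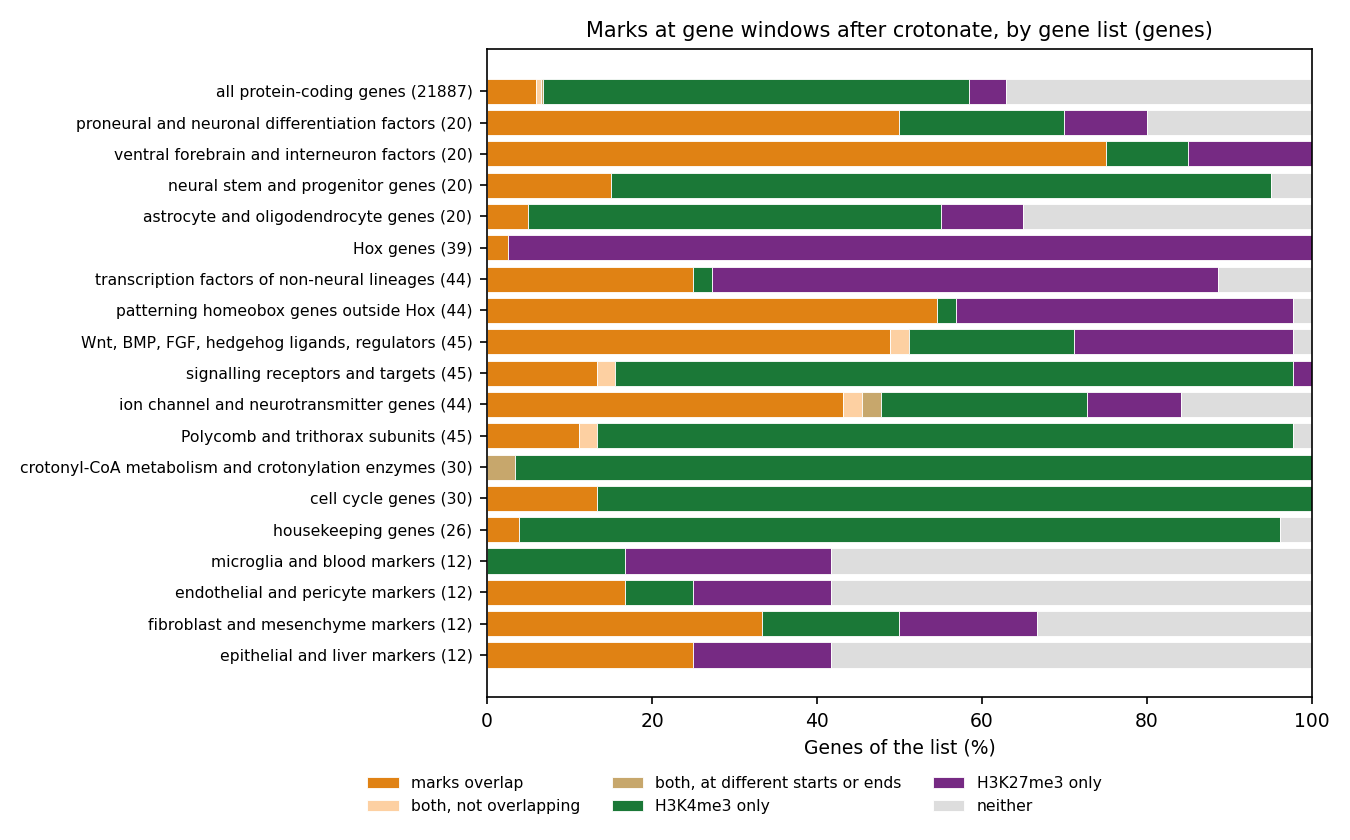
Share of genes in each state after crotonate (horizontal axis, % of the list) for all protein-coding genes and 18 lists (rows, number of genes in brackets). Overlapping marks (orange) take 5.93% of all genes, 15 of 20 ventral forebrain factors and none of the crotonyl-CoA genes, and H3K27me3 alone (purple) takes 38 of 39 Hox genes.

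The genes at which both marks were strongest were few and mixed. Ranked by the weaker of the 2 marks within its list, Scrt1, a neuronal repressor of the Snail family, came first. It had H3K4me3 of 4.64 kb (fold enrichment 48.6, −log10 q 165) and H3K27me3 of 7.78 kb (48.8, 149), and 45.1% of the H3K4me3 peak was covered. Phpt1, a histidine phosphatase, had 3.83 kb (138) meeting H3K27me3 of 6.07 kb (223), and the marks did not overlap there after water. Coch, a secreted protein of the inner ear, had H3K4me3 of 1.61 kb (122) wholly inside H3K27me3 of 4.71 kb (31.6). Aatf, an anti-apoptotic factor, had 1.63 kb (121) on a domain of 31.9 kb (327) that also took in Lhx1, a patterning homeobox gene. Plag1 and Chchd7, a zinc finger factor and a mitochondrial protein, share a promoter with 2.23 kb (119) in 15.6 kb (70.9), and Ankrd27 and Rgs9bp share another. Pcgf1 and Pcgf2 were in this group too. Among these genes the H3K4me3 peak was wholly covered only at Coch.

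At the other end, the strongest H3K4me3 peaks apart from H3K27me3 were at Hjurp, the chaperone of centromeric histone (2.55 kb, −log10 q 364), Dnaja3, a mitochondrial chaperone (254), and the shared promoter of Pdcd11 and Atp5md (243). Zfp81, Man1b1, Orc6 with Vps35 and Ncdn with AU040320 followed, with 239 to 241. H3K27me3 was at least 9378 bp from each of these peaks. Among peaks between H3K27me3 peaks, that of Eno4 and Hspa12a had 1.75 kb (120) with gaps of 2169 and 1308 bp. Deptor, an mTOR inhibitor, had 1.43 kb (110) with gaps of 2312 and 1154 bp. Shmt2, the mitochondrial enzyme of serine and glycine exchange, had 1.68 kb (69.3) between gaps of 4818 and 1319 bp, beside H3K27me3 of 13.2 kb (155).

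Set beside water, overlapping marks were called at 721 genes after water and 1298 after crotonate. Of the 1298, 666 (51.3%) overlapped after water too, 378 (29.1%) had H3K27me3 alone there, 141 (10.9%) had H3K4me3 alone and 45 had neither. From the water side, 666 of 721 (92.4%) overlapped after crotonate, 43 had H3K4me3 alone and none had H3K27me3 alone. In the ventral list overlap was at 7 genes after water and 15 after crotonate, and H3K27me3 alone at 11 and 3. In the patterning homeobox list overlap was at 9 and 24, and H3K27me3 alone at 33 and 18. The crotonate lists were longer than the water lists (16007 and 13221 H3K4me3 peaks, 15879 and 7643 H3K27me3 peaks). A mark not listed after water may lie just under the threshold there, so library depth and treatment cannot be told apart. The share of H3K27me3 peaks on H3K4me3 was 10.5% after crotonate and 11.7% (11.0 to 12.5) after water, and that of H3K4me3 peaks on H3K27me3 10.7% and 6.88% (6.46 to 7.33).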

How the data were processed

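CUT&Tag peak lists of H3K4me3 and H3K27me3 after crotonate were compared, with the 2 water lists beside them. Per the file headers, the deposited lists are in the layout of MACS2, with start and end counted from 1, pileup at the summit as a signal, −log10 of p and of q, and fold enrichment as a linear ratio, all made by the authors' caller. Per the submitters' processing notes, Bowtie2 2.4.1, SAMtools 1.10, Picard 2.22.0, MACS2 2.2.7.1 and GRCm38 were used. Settings, and which library served as background: not given in the sources used here. Every deposited peak had q under 0.05. Fragment totals are not given, and pileups rise in steps of a scaling factor per library. Those steps differed 1.58-fold between the marks after crotonate, so pileups were not compared. They were 0.6357 for H3K27me3 and 0.4025 for H3K4me3 after crotonate, and 0.2867 and 0.2599 after water. The scaling thus differed between the treatments as well. Lists called per library depend on depth, in length and in number.

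Overlap needed 1 shared bp and a flank a gap of at most 5 kb. Gene windows reached 2 kb either side of the starts in RefSeq tables of GRCm38.p6 (21887 genes, 17492 with a listed start), and otherwise of both annotated ends, which can take in 3′ ends and neighbours. This replaced the planned use of starts alone. Code (Python 3.11.15, scipy 1.17.1, pandas 2.3.3, numpy 2.4.6) was tested on simulated peaks, bedtools 2.31.1 gave the same overlap counts, and matplotlib 3.10.9 drew the figures. The rule named the 10 leading genes with overlapping marks, with H3K4me3 alone and apart, with the longest H3K27me3 alone and with H3K4me3 between H3K27me3 peaks, up to 4 genes per list and state, and 13 genes always. Members, the 18 lists (514 genes), families and motifs were chosen with earlier results of these data known. Some items that the rule names are left out of the text, and list members and long domains named outside it were picked after their values were seen.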

Additional observations from a re-analysis of the deposited data

How the results depend on the processing

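Stated as the share of H3K4me3 peaks on H3K27me3, of H3K27me3 peaks on H3K4me3, of H3K4me3 flanked and of H3K27me3 flanked, the results were 8.62%, 16.8%, 2.48% and 9.45% with peaks of −log10 q of at least 5. They were 0.94%, 1.04%, 1.34% and 1.62% with the 5000 strongest peaks of each list. They were 9.86%, 9.21%, 5.35% and 12.5% when an overlap had to take in 50% of the shorter peak. Flanks within 2 kb gave 1.89% and 4.42%, and within 10 kb 7.61% and 20.2%. Joining H3K27me3 peaks across gaps of up to 3 kb gave 20.2% of H3K27me3 on H3K4me3 and 7.43% flanked. Without chromosome X, a setting added after seeing the data, 11.1% of H3K27me3 lay on H3K4me3. The 5000 strongest peaks gave 48 genes with overlapping marks, 16 with both not overlapping, 5608 with H3K4me3 alone and 1651 with H3K27me3 alone. Genes with both marks not overlapping numbered 74 with −log10 q of at least 5, 236 with the 50% overlap, 45 with windows of 1 kb and 479 with windows of 5 kb. Wider flanks and windows take in more by construction. The larger number of genes with H3K27me3 alone among the 5000 strongest also follows by construction, since weaker H3K4me3 peaks were left out. The cause of the other moves was not tested. The other 31 of 58 main values stayed within 1.5 times their count or within their interval, and no direction turned among them. The turn at CpG-poor promoters is given with that result, and that split and the use of listed starts alone were also added after seeing the data. No paired analysis was possible because there was 1 library per mark and treatment, so no library could be left out either.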

Other observations

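Chromosome X held 1443 H3K27me3 peaks after crotonate, of which 65 (4.50%, 3.49 to 5.71) lay on H3K4me3, against 1597 of 14436 (11.1%, 10.6 to 11.6) on the autosomes. The H3K27me3 peaks of X were shorter in the median, at 649 bp against 850 bp. Of the H3K4me3 peaks, 63 of 505 (12.5%, 9.72 to 15.7) on X lay on H3K27me3, against 10.7% on the autosomes. Of 966 genes of X, 366 (37.9%) had H3K4me3 alone and 513 (53.1%) neither mark, against 53.0% and 35.6% of the 20665 autosomal genes. The sex of the embryos is not given in the sources used here, and its part in these values was not tested.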
